A study of Mus musculus with 10 samples.

Results

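The guanylate-binding proteins described here are 8 mouse genes, Gbp2 to Gbp9, found by matching the Ensembl identifiers of the deposited count table to these symbols in a table of gene names. Each symbol had 1 row among the 52636 genes of the table, and all 8 passed the filter on low counts. The counts come from polyadenylated RNA of 10 melanoma tumours in mice. Every tumour carried BrafCA, an oncogenic Braf allele switched on by Cre recombinase, together with floxed alleles of the tumour suppressor locus Cdkn2a. In 6 tumours an Arf6Q67L allele was present as well, whose ARF6 GTPase is held in its GTP-bound, active state, and the other 4 were the controls. The sources used here do not give the Cre driver or the age of the mice. They do not state that each tumour came from a separate animal, so p-values measure the spread between these tumours.

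Guanylate-binding proteins are large GTPases related to dynamin that interferons induce, interferon-gamma above all. They assemble on bacteria and on the vacuoles of intracellular parasites, break these membranes open, and feed microbial products to inflammasomes. In tumours their transcripts are commonly read as a trace of interferon exposure, since tumour cells, endothelium and immune cells can all make them. In the mouse the genes lie in a pair of clusters, and 4 of the 8 fall in each.

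The cluster on chromosome 3 runs on the plus strand (GRCm38 coordinates throughout) and holds Gbp5 (142493978 to 142522344), Gbp7 (142530342 to 142550149), Gbp3 (142560026 to 142573209) and Gbp2 (142620602 to 142638008). The cluster on chromosome 5 runs on the minus strand and holds Gbp8 (105014150 to 105139540), Gbp9 (105077630 to 105139539), Gbp4 (105115767 to 105139586) and Gbp6 (105270702 to 105293698). Annotated transcripts of Gbp8 and Gbp9 reach into Gbp4, but only 0.814% to 1.77% of the exon bases of these 3 genes overlapped another gene. In Gbp7 it was 11.3%, all with Gm43802, which had 0 counts in all 10 tumours. Near-identical sequence is a larger limit for Gbp6. Of its distinct stretches of 50 bases, 70.7% also occur in transcripts of another gene, and 65.0% of all its stretches occur in Gm43302, an annotated gene that overlaps Gbp6 and that had 0 counts in every tumour but control 4. For the other 7 members the shared part ran from 1.44% in Gbp5 to 18.1% in Gbp8. How the counting treated reads that match several genes is not given in the sources used here, so the level of Gbp6 is uncertain. For the same reason, the 0 counts of Gm43802 do not show that Gbp7 lost no reads to the overlap.

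Promoter windows from 250 bases before to 50 bases after a RefSeq start site (GRCm38.p6) were found for 4 members, those on chromosome 3. They are shown because the motifs of interferon-driven transcription lie in them. Capitals mark matches to the core of the interferon-stimulated response element (GAAA, any 2 bases, then GAAA, on either strand), which IRF factors bind, and to the core of the gamma-activated site (TTCNNNGAA, which reads the same on both strands), an element of the response to interferon-gamma. The windows, on the plus strand, are chr3:142620413-142620712 for Gbp2, chr3:142559794-142560093 for Gbp3, chr3:142496684-142496983 for Gbp5 and chr3:142530086-142530385 for Gbp7.
Gbp2: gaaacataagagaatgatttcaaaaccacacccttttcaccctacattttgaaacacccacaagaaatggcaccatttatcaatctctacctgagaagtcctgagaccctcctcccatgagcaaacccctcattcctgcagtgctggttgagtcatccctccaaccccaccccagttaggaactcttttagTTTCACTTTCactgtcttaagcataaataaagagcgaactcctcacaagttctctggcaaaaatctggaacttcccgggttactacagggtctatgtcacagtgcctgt
Gbp3: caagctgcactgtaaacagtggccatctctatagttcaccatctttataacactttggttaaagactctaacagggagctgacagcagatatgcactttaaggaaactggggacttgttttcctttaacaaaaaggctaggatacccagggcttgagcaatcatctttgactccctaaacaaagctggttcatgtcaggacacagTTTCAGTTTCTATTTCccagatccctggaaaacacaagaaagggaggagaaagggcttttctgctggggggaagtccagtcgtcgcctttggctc
Gbp5: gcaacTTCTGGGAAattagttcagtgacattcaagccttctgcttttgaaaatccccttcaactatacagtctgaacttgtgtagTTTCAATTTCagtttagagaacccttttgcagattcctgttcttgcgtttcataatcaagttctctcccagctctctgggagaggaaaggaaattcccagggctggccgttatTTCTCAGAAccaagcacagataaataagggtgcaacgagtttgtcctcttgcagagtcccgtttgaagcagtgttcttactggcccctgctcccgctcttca
Gbp7: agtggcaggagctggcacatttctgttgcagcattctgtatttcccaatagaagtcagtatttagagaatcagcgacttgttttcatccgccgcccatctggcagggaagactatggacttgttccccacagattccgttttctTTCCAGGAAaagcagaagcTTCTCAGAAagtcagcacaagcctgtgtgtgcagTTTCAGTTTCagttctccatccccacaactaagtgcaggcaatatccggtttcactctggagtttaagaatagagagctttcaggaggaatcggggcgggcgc
The response element core was in all 4 of these windows, against 3.44% of the 32851 windows in the table. All of these matches were on the strand opposite to the gene: on the gene strand alone 0 of 4 windows held one, against 1.74% of all windows. In Gbp2, Gbp3 and Gbp7 it lay within 59 bases upstream of the start site (from -59 in Gbp2, from -45 and -39 in Gbp3, where 2 matches overlap, and from -53 in Gbp7). In Gbp5 it began at -165. The activated site core was in 2 of the 4, Gbp5 and Gbp7, each with 2 matches, against 8.30% of all windows, and no match to 1 motif overlapped a match to the other. A second RefSeq window of Gbp3 (chr3:142560106-142560405) held neither. Such matches describe the letters of a window and say nothing of binding in these tumours.

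All 8 genes were lower in Arf6Q67L tumours than in controls, with log2 fold changes from -2.57 for Gbp6 to -1.35 for Gbp8 and a median of -1.92, beside a median of -0.00177 over all 17286 genes tested. Of all genes, 50.3% had a negative value. In every one of the 8, 5 of 6 Arf6Q67L tumours lay below every control, and Arf6Q67L tumour 5 did not. The groups therefore overlapped in 8 of 8 members. Over all genes they did not overlap for 1.28% lower and 1.15% higher in Arf6Q67L tumours. The share of all genes with 5 of 6 Arf6Q67L tumours below every control was not computed. By edgeR's quasi-likelihood test with Benjamini-Hochberg adjustment over all genes, 0 of 8 members passed an adjusted p of 0.05, and so did 0 of all genes in either direction (0%). At an unadjusted p under 0.05 all 8 were lower, where 7.05% of all genes were called lower. DESeq2 called 2 of 8 lower, Gbp3 (adjusted p = 0.0236) and Gbp5 (0.0492), with Gbp6 just outside (0.0503), against 1.49% of the genes to which it gave an adjusted p (1.01% were called higher). The classic exact test of edgeR called 1 of 8, Gbp3 (adjusted p = 0.0425), against 0.891% of all genes. The members are described here with their results known, and the counts are read beside those shares only.

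Gbp2 and Gbp5 encode proteins with a CAAX box, which takes a prenyl anchor that fixes them to membranes. Gbp2, a main effector against Toxoplasma vacuoles, ran from 27.1 to 497 CPM in the Arf6Q67L tumours with a median of 74.2 CPM (CPM, counts scaled to a common library size by TMM factors and expressed per megaread). The controls stood at 210.0, 598, 168 and 1267 CPM in the order of their numbers. The groups overlapped because Arf6Q67L tumour 5, at 497 CPM, was above controls 1 and 3. The means were 140.03 ± 179 CPM (SD, n = 6) and 561 ± 509 CPM (SD, n = 4). The fitted difference was -2.002 on the log2 scale (SE 0.86; edgeR adjusted p = 0.412). The SD of each group was close to or above its mean.

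Gbp5, which promotes assembly of the NLRP3 inflammasome, ran from 7.85 to 48.1 CPM in the Arf6Q67L tumours with a median of 14.7 CPM. In controls 1 to 4 it stood at 45.3, 57.3, 29.4 and 145 CPM. Arf6Q67L tumour 5 exceeded controls 1 and 3, and the other 5 Arf6Q67L tumours, at up to 21.6 CPM, were below all controls. On the log2 scale the difference was -1.85 (SE 0.58; edgeR adjusted p = 0.309).

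The other members of the chromosome 3 cluster are Gbp3 and Gbp7. Gbp3, which also gathers on the Toxoplasma vacuole, ran from 19.8 to 135 CPM in the Arf6Q67L tumours with a median of 36.6 CPM. Controls 1 to 4 were at 97.4, 198, 98.8 and 481 CPM. Controls 1 and 3 lay between Arf6Q67L tumour 5 and the remaining Arf6Q67L tumours, of which the highest was at 45.1 CPM. On the log2 scale Gbp3 differed by -2.14 (SE 0.62), with the lowest unadjusted p of the 8 (0.00622; edgeR adjusted p = 0.283).

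Gbp7, which has been tied to the phagocyte oxidase, had a 9.49-fold span over the 10 tumours, close to the narrowest of the 8 (9.22-fold, Gbp9). It ran from 32.7 to 111 CPM in the Arf6Q67L tumours with a median of 45.5 CPM, and stood at 87.3, 129.6, 65.9 and 309.8 CPM in controls 1 to 4. Only tumour 5 of the Arf6Q67L group passed the lowest control. Its log2 fold change came to -1.42 (SE 0.47; edgeR adjusted p = 0.325).

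**Figure D1:**
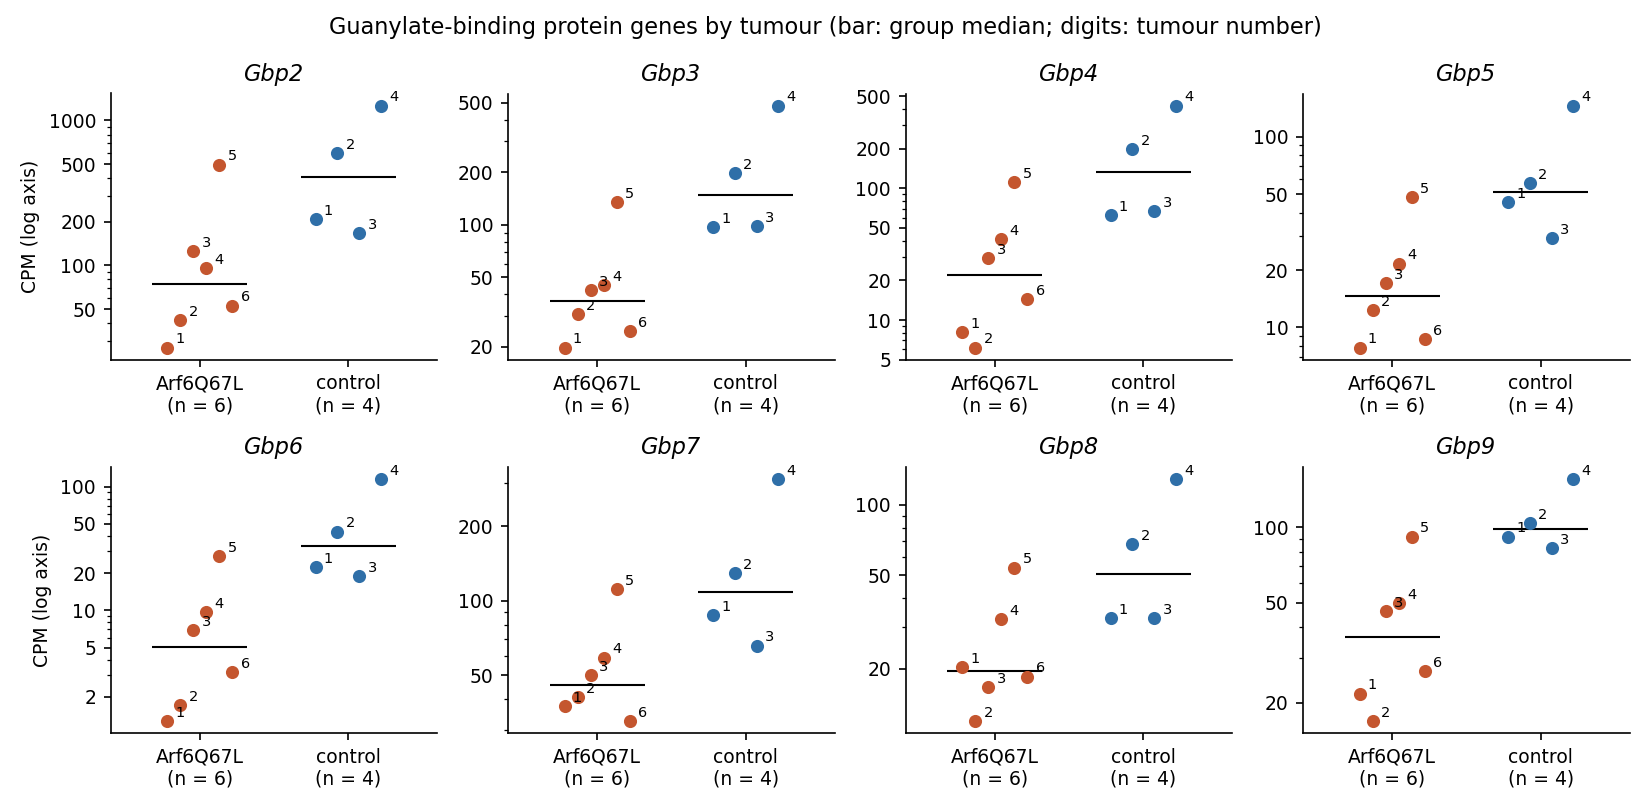
CPM (log axis) of each gene in each tumour, with Arf6Q67L tumours in orange, controls in blue, a bar at the group median and the tumour's number beside its point. In all 8 panels Arf6Q67L tumour 5 stands among the controls, the other 5 Arf6Q67L tumours lie below every control, and control 4 is highest.

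On chromosome 5, Gbp4 and Gbp6 had the largest differences. Gbp4, which has been described as a brake on the interferon regulator IRF7, ran from 6.18 to 112 CPM in the Arf6Q67L tumours with a median of 21.9 CPM. Controls 1 to 4 were at 62.2, 199.7, 67.4 and 424 CPM. The Arf6Q67L range was wide, 18.1-fold from tumour 2 to tumour 5, and its top lay above controls 1 and 3. The fit gave a log2 fold change of -2.42 (SE 0.85; edgeR adjusted p = 0.346).

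Gbp6, another protein of the parasite vacuole, ran from 1.27 to 27.4 CPM in the Arf6Q67L tumours with a median of 5.07 CPM. In controls 1 to 4 it stood at 22.5, 43.3, 18.99 and 115 CPM. Its 90.3-fold span between Arf6Q67L tumour 1 and control 4 was the widest of the 8. Its log2 fold change was -2.57 (SE 0.86; edgeR adjusted p = 0.338).

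Gbp8 and Gbp9 had the smallest differences beside Gbp7. Gbp8 ran from 11.9 to 54.0 CPM in the Arf6Q67L tumours with a median of 19.4 CPM, and was at 32.8, 68.1, 32.8 and 129 CPM in controls 1 to 4. Here the groups nearly touched without tumour 5 too, since Arf6Q67L tumour 4 stood at 32.6 CPM against 32.8 CPM in the lowest control. The log2 difference of Gbp8 was -1.35 (SE 0.496; edgeR adjusted p = 0.361).

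Gbp9, also found on parasite vacuoles, ran from 16.9 to 91.8 CPM in the Arf6Q67L tumours with a median of 36.6 CPM. Controls 1 to 4 were at 91.8, 104, 82.9 and 156 CPM, the tightest set of controls among the members, with a 1.88-fold span. Tumour 5 passed control 3 alone for this gene. For Gbp9 the log2 fold change was -1.36 (SE 0.44; edgeR adjusted p = 0.318).

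Compared tumour by tumour on mean log2 CPM, each member gave a two-sided exact permutation p between 0.0190 (Gbp9) and 0.0476 (Gbp2), where the smallest p that 6 against 4 tumours allow is 0.00476. These 8 p-values are unadjusted and the 8 genes are measured in the same libraries, so they are not separate pieces of evidence.

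The tumours kept nearly the same order in all members. Control 4 was highest and control 2 second in 8 of 8 genes, and Arf6Q67L tumour 5 came next in 7 and just behind control 1 for Gbp9. At the other end, the lowest value fell in Arf6Q67L tumour 1 for 4 genes (Gbp2, Gbp3, Gbp5 and Gbp6), in tumour 2 for 3 (Gbp4, Gbp8 and Gbp9) and in tumour 6 for Gbp7. Summed over the 8 genes, the level spanned 144 to 1076 CPM with Arf6Q67L and 564 to 3027 CPM without. The members also varied by tumour within each genotype: Gbp2 spanned 18.3-fold among the Arf6Q67L tumours and 7.54-fold among controls.

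The sizes of the differences rested on single tumours. Without control 4 the median of the 8 log2 fold changes was -1.20, and Gbp3 and Gbp9 alone kept an unadjusted edgeR p under 0.05 (2 of 8, where 4.31% of all genes were called lower in that fit). Without Arf6Q67L tumour 5 the median was -2.56, all 8 had an unadjusted p under 0.05 (7.53% of all genes), and edgeR adjusted p-values ran from 0.197 to 0.238. In no case did a member pass the adjusted threshold or change direction when a tumour was left out.

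**Figure D2:**
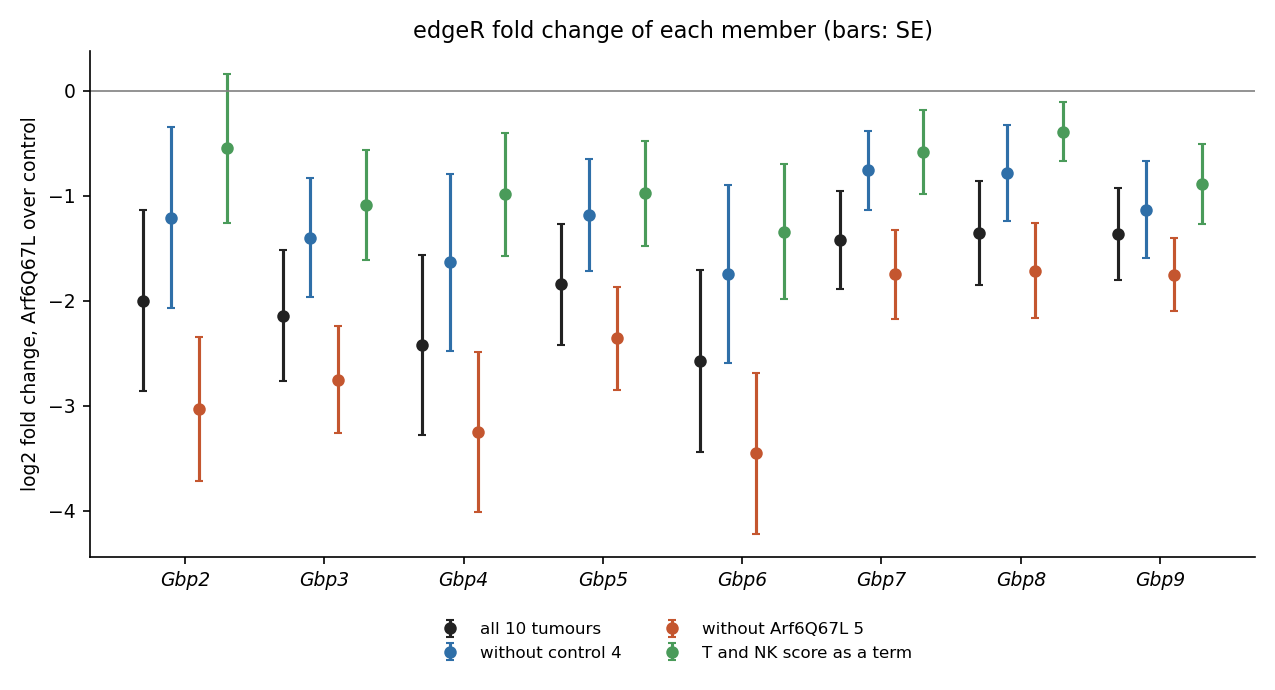
edgeR log2 fold change of each gene, Arf6Q67L over control, with its standard error, for all 10 tumours, without control 4, without Arf6Q67L tumour 5, and with the T and NK cell score as a term. All points lie below 0, lowest without tumour 5 and nearest 0 with the score as a term.

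Per kilobase of merged exons, which allows levels of different genes to be set side by side, Gbp2 was the most abundant member in both groups. Its mean was 55.7 ± 71.0 CPM per kilobase (SD, n = 6) in Arf6Q67L tumours and 223 ± 202 (SD, n = 4) in controls. It was above Gbp3, the next, in all 10 tumours. Gbp3 followed with 15.2 ± 13.1 (SD, n = 6) and 67.1 ± 55.5 CPM per kilobase (SD, n = 4), above the next gene, Gbp7, in 5 of 6 Arf6Q67L tumours and 4 of 4 controls. Gbp7, Gbp9, Gbp8 and Gbp4 held the middle of the order and changed places between tumours: in controls Gbp7 was above Gbp4 in 2 of 4 and Gbp4 above Gbp9 in 2 of 4. In the Arf6Q67L tumours Gbp9 was above Gbp8 in 3 of 6. Gbp5 (2.90 and 10.4 CPM per kilobase) and Gbp6 (1.41 and 8.39) had the lowest means, and Gbp5 was above Gbp6 in all 10, but Gbp4 was above Gbp5 in no more than 4 of 6 Arf6Q67L tumours. The order also moved with the length used: per kilobase of the longest transcript, Gbp4 was above Gbp7 in controls (41.5 against 26.4 CPM per kilobase), in 3 of 4 tumours. On that length Gbp5 stood at 18.5 CPM per kilobase in controls, and Gbp8 was above it in 2 of 4.

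The mixture of members also differed between tumours. Gbp2 made up 44.8 ± 11.4% (SD, n = 6) of the summed level per kilobase in Arf6Q67L tumours and 52.1 ± 7.27% (SD, n = 4) in controls, with overlapping ranges. It held 29.8% in Arf6Q67L tumour 1 and 61.9% in tumour 5, the lowest and highest of the 10. Gbp7 made up 12.4 ± 4.58% (SD, n = 6) and 7.17 ± 1.43% (SD, n = 4), and Gbp8 9.32 ± 4.29% (SD, n = 6) and 5.24 ± 0.855% (SD, n = 4), again overlapping. Gbp6 was the only member whose share did not overlap, at 0.591% to 1.78% in Arf6Q67L tumours and 1.80% to 2.21% in controls. This share was singled out after the values were seen and was not tested. The chromosome 5 genes together held 31.1 ± 5.88% (SD, n = 6) of the summed CPM in Arf6Q67L tumours and 31.2 ± 3.68% (SD, n = 4) in controls.

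**Figure D3:**
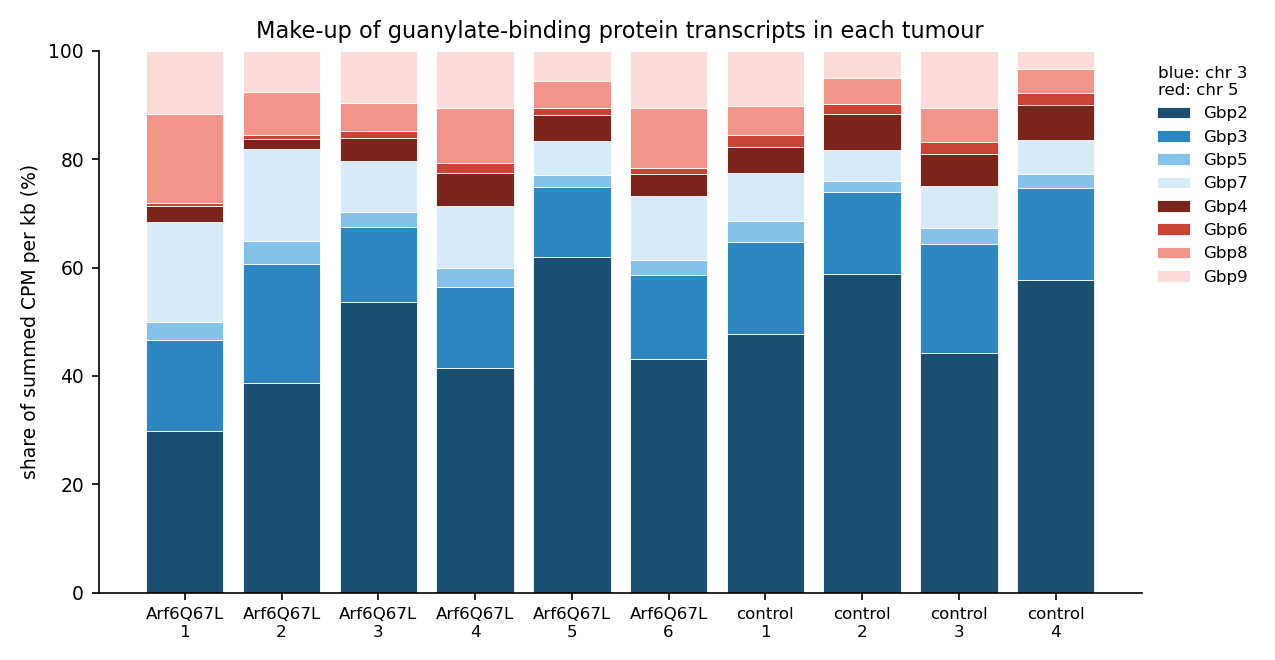
Share (%) of each gene in the summed CPM per kilobase of the 8 genes, by tumour, with chromosome 3 genes in blue and chromosome 5 genes in red. Gbp2 holds the largest share in every tumour, from 29.8% in Arf6Q67L tumour 1 to 61.9% in tumour 5.

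The other family genes, Gbp2b, Gbp10 and Gbp11, had 0 of 3 passing in edgeR and 3 of 3 lower at an unadjusted p under 0.05. DESeq2 called 1 of 3 (Gbp10) lower. Over all genes 7.05% were lower at that unadjusted p and DESeq2 called 1.49% lower. These shares stand beside the counts of all lists below. Gbp2b, the gene once called Gbp1, had a log2 fold change of -2.59 (SE 1.04, edgeR adjusted p = 0.387) and spanned 1.71 to 111 CPM with Arf6Q67L and 37.9 to 474 CPM without. For Gbp10 the mean was 0.370 CPM in Arf6Q67L tumours (SD 0.443, n = 6) against 7.74 CPM in controls (SD 10.3, n = 4), with 0 counts in Arf6Q67L tumour 2, 1 in tumour 6 and 22.4 CPM in control 4. Of its stretches of 50 bases, 73.3% are shared with Gbp6. Gbp11, annotated as a polymorphic pseudogene, reached 0.963 CPM with Arf6Q67L and 4.23 CPM without, and had 2 counts, under the floor of 3, in Arf6Q67L tumour 2. The atlastins are GTPases with a related fold that shape the endoplasmic reticulum and are not known as interferon targets. They had log2 fold changes of 0.23 (Atl1, SE 0.29), 0.11 (Atl2, SE 0.09) and 0.19 (Atl3, SE 0.11), and 0 of 3 had an unadjusted edgeR p under 0.05.

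The immunity-related GTPases, which act with the guanylate-binding proteins on vacuoles, were lower in 9 of 9 at a median of -2.45. In edgeR 0 of 9 passed, all 9 had an unadjusted p under 0.05 (7.05% of all genes were lower), and DESeq2 called 7 of 9 (1.49%). Gm4951 (-2.45, SE 0.60), Irgm2 (-1.99, SE 0.55), Irgm1 (-1.93, SE 0.57) and Tgtp2 (-2.73, SE 0.86) had the lowest p-values of this list. Inflammasome and pyroptosis genes, which act downstream of the guanylate-binding proteins, had negative values in 8 of 8 at a median of -0.77, with 1 of 8 at an unadjusted edgeR p under 0.05. None passed in edgeR (0 of 8) and DESeq2 called 1. The gene in both counts was Gsdmd, which encodes the pore-forming gasdermin D (-0.61, SE 0.16, edgeR adjusted p = 0.257). The adaptor Pycard (-0.97, SE 0.48), the protease Casp1 (-1.46, SE 0.73) and the sensor Nlrp3 (-0.38, SE 0.21) did not reach an unadjusted p of 0.05.

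The ATG8 conjugation genes, which direct guanylate-binding proteins to vacuoles, were negative in 10 of 10 at a median of -0.12, with Atg3 at -0.28 (SE 0.11), Gabarap at -0.26 (SE 0.12), Atg12 at -0.14 (SE 0.09) and Atg5 at -0.15 (SE 0.13). Of the 10, Atg3 alone had an unadjusted edgeR p under 0.05 and 0 passed in edgeR or DESeq2. The SD of Atg3 over the Arf6Q67L tumours, 0.218 CPM around a mean of 51.5 CPM, is smaller than counting noise would give. The enzymes of CAAX prenylation had a median of 0.09 over 5 genes, with 0 at an unadjusted edgeR p under 0.05. Fnta and Fntb, subunits of farnesyltransferase, stood at 0.16 (SE 0.09) and -0.22 (SE 0.13), Icmt, the carboxyl methyltransferase of prenylated proteins, at 0.24 (SE 0.17), and Pggt1b, which serves the attachment of the longer prenyl group, at 0.09 (SE 0.12).

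Upstream, the interferon-gamma list was negative in 8 of 8 at a median of -0.38, with 0 passing in edgeR, 4 at an unadjusted p under 0.05 and 2 called by DESeq2. Ifng itself, the cytokine gene, had few counts: 1, 2, 8, 43, 63 and 7 in Arf6Q67L tumours 1 to 6 and 30, 153, 20 and 287 in controls 1 to 4. Its log2 fold change was -2.75 (SE 1.09, edgeR adjusted p = 0.386). The transcription factor Irf1 (-1.60, SE 0.49) was lower too, while the receptor chains Ifngr1 (-0.25, SE 0.34) and Ifngr2 (-0.09, SE 0.19) and the kinase Jak1 (-0.10, SE 0.08) stood nearer 0. The other kinase of the list, Jak2, stood at -0.42 (SE 0.22) and did not reach an unadjusted edgeR p of 0.05. The feedback inhibitor Socs1 (-0.88, SE 0.30) and the phosphatase Ptpn2 (-0.33, SE 0.07), which removes phosphate from JAK kinases, were below every control in 6 of 6 tumours. That was 2 of the 8 genes of this list, where 1.28% of all genes separated this way. Gsdmd of the inflammasome list and Stat2 of the type I list did so too. The type I interferon list had a median of -0.51 over 6 tested genes, of which 0 passed in edgeR, 3 had an unadjusted edgeR p under 0.05 and DESeq2 called 2. In it Stat2 (-1.26, SE 0.21), Irf7 (-2.06, SE 0.51) and Irf9 (-0.70, SE 0.20) were lower, and the receptor chains Ifnar2 (-0.32, SE 0.16) and Ifnar1 (0.0062, SE 0.18) were nearer 0.

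The members followed Ifng and Irf1 across tumours. Over the 10 tumours, Pearson's r of log2 CPM ran from 0.914 (Gbp9) to 0.970 (Gbp4) with Ifng and from 0.928 (Gbp7) to 0.988 (Gbp6) with Irf1. Of the other genes tested, 1.23% had an r with Ifng at or above the lowest of the members, and 0.544% with Irf1. Spearman's rho over the 16 relations ran from 0.879 to 0.988. In a permutation test with adjustment over the 16, p ran from 4.00e-05 to 2.50e-04 for r and from 1.60e-04 to 0.00165 for rho. Without Arf6Q67L tumour 1 and control 4, the tumours farthest from the median of both genes, r ran from 0.845 to 0.983. Within the 6 Arf6Q67L tumours it ran from 0.818 to 0.976, with adjusted exact permutation p from 0.0111 to 0.0472. For Ifng, 2 of those 6 points (1 and 2 counts) lie under the floor of 3 counts. Without these 2 tumours r over the other 8 ran from 0.840 to 0.976 with Ifng. All of these values share libraries and scaling, and members that move together do not count as separate relations.

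**Figure D4:**
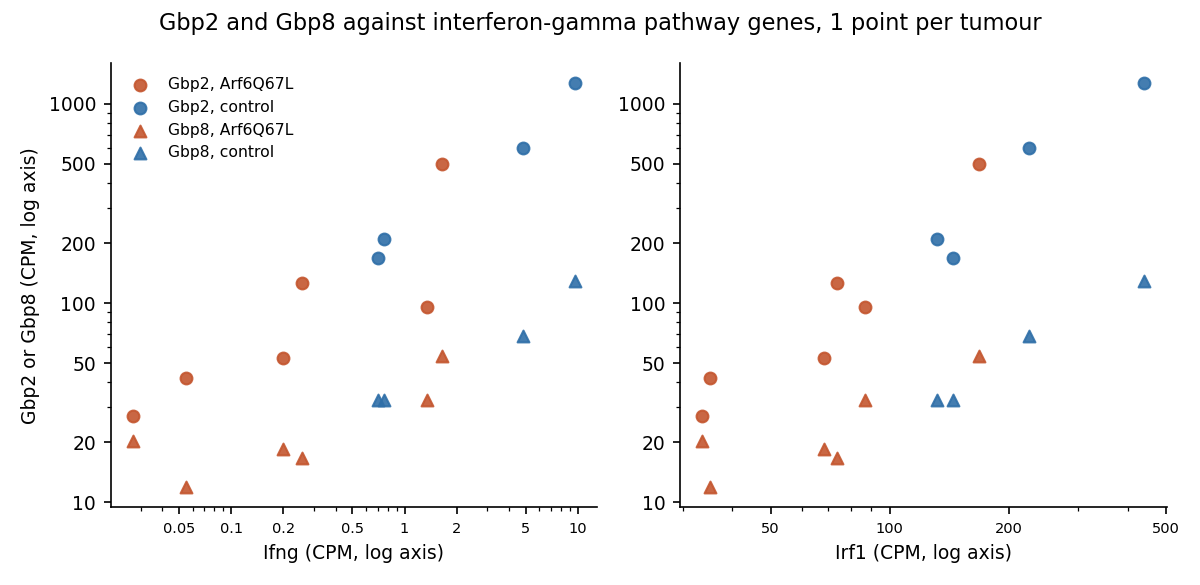
Gbp2 (circles) and Gbp8 (triangles) against Ifng and Irf1, in CPM on log axes, with 1 point per tumour, Arf6Q67L in orange and controls in blue. The highest Arf6Q67L point of each gene is tumour 5, which lies between controls 1 and 3 on the low side and controls 2 and 4 on the high side.

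The genes most like the members were sought by Pearson's r, over the 10 tumours, with the mean standardised log2 CPM of the 8. Among 13241 other genes with a mean log2 CPM of at least 1, the 5 highest were Tap2 (0.993), a chain of the peptide transporter for MHC class I, the immunity-related GTPases Tgtp2 (0.988), Igtp (0.988) and Gm12250 (0.988), and Gm12185 (0.987). With each group's mean removed, r for these 5 ran from 0.974 (Gm12185) to 0.990 (Tap2). For the members themselves, r with this mean ran from 0.952 (Gbp8) to 0.989 (Gbp4). Each member is 1 of the 8 in this mean, so its r is high in part by construction.

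The mean log2 CPM of the T and NK cell markers was highest in controls 4 and 2, as the members were. Its order in the other tumours differed from theirs. Single markers varied: Prf1 (71.5 CPM) and Gzmb (80.9 CPM) were highest in Arf6Q67L tumour 1, and Ncr1 (7.36 CPM) in Arf6Q67L tumour 4. In these bulk samples, fewer cells of a type and less RNA per cell cannot be told apart. The 16 T and NK cell markers were lower in 15 genes at a median log2 fold change of -2.01, with 0 of 16 passing in edgeR and 7 at an unadjusted p under 0.05, and their summed level spanned 58.1 to 233 CPM with Arf6Q67L and 129 to 722 CPM without. Their mean log2 CPM was 5.14 in control 4 and 4.75 in control 2. It was 3.63 in Arf6Q67L tumour 4, 3.11 in tumour 5 and 2.53 in tumour 6, all above controls 1 (2.24) and 3 (2.18). The T cell marker Cd3e stood at 1.47 and 1.20 CPM in controls 1 and 3 and at 5.26 CPM in Arf6Q67L tumour 4. Gbp2 stood at 210.0, 168 and 95.6 CPM in the same tumours. Ifng, like Cd3e, was higher in Arf6Q67L tumour 4 (1.35 CPM) than in controls 1 (0.761 CPM) and 3 (0.705 CPM). With the T and NK score as a term beside genotype, the 8 members had a median of -0.93, and 1 of 8, Gbp9 (-0.89, SE 0.38), had an unadjusted edgeR p under 0.05. Without that term all 8 did. The share of all genes called lower was 3.38% with the term and 7.05% without it.

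Other marker lists are given by their median log2 fold change and range of summed CPM, and 0 of their genes passed in edgeR. The 11 macrophage markers had -0.82 (1159 to 2262 CPM in Arf6Q67L tumours and 1727 to 4545 CPM in controls). Of these, 6 were lower and 1 higher at an unadjusted p under 0.05, and DESeq2 called 1 higher. The 7 dendritic cell markers had -0.78 (43.8 to 74.7 and 53.1 to 174 CPM), with 3 lower at that unadjusted p. The 10 endothelial markers had -0.88 (147 to 399 and 185 to 509.6 CPM), with 6 lower at that level. DESeq2 called 3 of the endothelial markers lower. The 5 mast cell markers had 3.13 (30.1 to 520.01 and 6.73 to 46.5 CPM), with 5 higher at an unadjusted p under 0.05 and 4 called by DESeq2. For the 5 skeletal muscle genes it was 0.93 (10.6 to 535 and 1.20 to 772 CPM) and for the 5 fibroblast genes 0.54, with 0 at an unadjusted p under 0.05 in either list. Of 5 B cell and 5 keratinocyte markers, 1 of each was abundant enough to test, Cd79b (-0.96) and Krt10 (-0.14), and neither had an unadjusted edgeR p under 0.05. The part of these cells, or of T and NK cells, in the levels of the guanylate-binding proteins was not tested. The T and NK term cannot separate it from genotype, because 15 of its 16 markers were themselves lower with Arf6Q67L. Of the 7 melanocyte genes that define the labelled tissue, 2 were abundant enough to test, at a median of -0.06. The 7 summed to 12.9 to 26.8 CPM in Arf6Q67L tumours and 14.0 to 21.3 CPM in controls. Among the 7, Tyr and Dct had 0 counts in all 10 tumours, which allows up to 0.0734 to 0.105 CPM by library. Mitf, the regulator of the lineage, averaged 16.98 CPM in Arf6Q67L tumours (SD 5.57, n = 6) against 16.6 CPM in controls (SD 4.18, n = 4).

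Sex, read from Xist and Y-linked genes because the labels do not give it, was uneven: 3 of 6 Arf6Q67L tumours and 3 of 4 controls were male. Among male tumours alone the median of the 8 was -1.76 and 0 of 8 had an unadjusted edgeR p under 0.05, where 6.32% of all genes were called lower. Among female tumours there was 1 control, which was above all 3 Arf6Q67L tumours in 8 of 8 members. This rests on 1 control and on libraries that the 8 genes share. The share of all genes with this order was not computed. With sex as a term the median was -1.66 and 5 of 8 had an unadjusted p under 0.05 (5.93% of all genes). The libraries numbered 1 to 6 were all Arf6Q67L and those numbered 9 to 12 all control, and the order of the library numbers therefore cannot be told apart from genotype. Total counts lay between 28635414 and 40869091, and Arf6 averaged 104 CPM in Arf6Q67L tumours (SD 21.3, n = 6) against 93.0 CPM in controls (SD 17.4, n = 4), with overlapping ranges. A count per gene cannot tell transcripts of the Arf6Q67L allele from those of the unchanged gene.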

How the data were processed

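RNA of 10 mouse melanoma tumours went, per the labels' protocols, into TruSeq Stranded mRNA libraries. The authors deposited 1 table of raw counts per Ensembl gene (unnormalised counts, 1 column per tumour). STAR 2.5.2b, featureCounts 1.5.1, DESeq2 1.18.0 and GRCm38 appear in the submitters' processing notes with no role given, and the strand setting is not given in the sources used here. All columns were mapped to samples by library identifier, and groups were taken from the genotype label. Tumours are numbered in accession order, which pairs none of them. Symbols came from a table of gene identifiers and names, which named 99.6% of rows, coordinates and exon lengths from GENCODE M21 (GRCm38), and promoters from RefSeq.

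Genes were fitted with edgeR 4.0.16 in R 4.3.3: filterByExpr (minimum count 10, 17286 genes kept), TMM factors, glmQLFit (robust) and glmQLFTest, with adjustment over all genes and a threshold of 0.05. The SE is the fold change over the root of F. CPM values use TMM factors, and log2 CPM a prior count of 2. Permutation tests of correlations drew 100000 resamples over 10 tumours. Alternatives were DESeq2 1.42.0, the classic exact test, limma-voom (limma 3.58.1), other scalings and filters, added terms and each tumour left out. The fit was tested on simulated data.

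Genes named were the 8 members, Ifng, Irf1, Arf6, all genes of lists of up to 3, up to 4 of lowest p in longer lists and the 5 genes most like the members. Outside this rule, and with their values in view, Ifngr1, Ifngr2, Jak1, Jak2, Ifnar1, Cd3e, Prf1, Gzmb, Ncr1, Tyr, Dct and Mitf were also named. A gene of the interferon-gamma list is not reported here and was left out of its counts and relations. The members and lists were chosen with earlier results of these data known. The floor behind a value of 0 was 3 counts per library (0.0734 to 0.105 CPM). It covers counting error alone, because PCR copies were not marked. No library looked like a repeat of another in its group: the chi-square statistic per gene was 77.9 or more for each pair. Protein sequences of the members and promoters of the chromosome 5 genes were not used here.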

Additional observations from a re-analysis of the deposited data

Results flagged for a closer look

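Arf6Q67L tumour 5 lay far above the other 5 Arf6Q67L tumours for 6 of the 8 genes, by a test of the gap to the nearest tumour over the range of the group, with a critical value of 0.625 for 6 tumours. The values were 497 CPM for Gbp2 (gap over range 0.790), 135 CPM for Gbp3 (0.780), 112 CPM for Gbp4 (0.668), 48.1 CPM for Gbp5 (0.658), 27.4 CPM for Gbp6 (0.677) and 111 CPM for Gbp7 (0.666). Chance gives such a result in about 1 of 20 groups if values follow a normal distribution, which was not checked for CPM. As 16 groups were examined and the genes move together, these 6 count as 1 observation of the same tumour. The test used CPM: on log2 CPM, a scale chosen after seeing the data, the same gaps ran from 0.341 to 0.571 of the range and 0 of the 6 passed the critical value. In the same tumour Irf1 stood at 169 CPM, the highest of the Arf6Q67L group.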

How the results depend on the processing

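Over 21 alternatives, including each tumour left out, all 168 log2 fold changes of the 8 genes were negative, from -3.45 to -0.39, and 165 stayed on the same side of the adjusted threshold. The 3 that passed it were Gbp3 in DESeq2 (-2.14) and in the classic exact test (-2.14), and Gbp5 in DESeq2 (-1.84). Thus DESeq2 called 2 members lower and the exact test 1. Over all genes DESeq2 called 246 lower and 167 higher, the exact test 154 and 40, and limma-voom 1 and 1, against 0 and 0 in the edgeR quasi-likelihood fit, and 2 genes were higher in male tumours alone. Members with an unadjusted p under 0.05 numbered 8 in the fit of all tumours, 5 with sex as a term, 1 with the T and NK score as a term and 0 in male tumours alone, an alternative chosen after seeing the data. Over all genes the share called lower in these fits was 7.05%, 5.93%, 3.38% and 6.32%. With 1 tumour left out at a time, the log2 fold change ran from -3.03 to -1.21 for Gbp2, -2.75 to -1.40 for Gbp3, -3.25 to -1.63 for Gbp4, -2.36 to -1.18 for Gbp5, -3.45 to -1.75 for Gbp6, -1.75 to -0.76 for Gbp7, -1.71 to -0.78 for Gbp8 and -1.75 to -1.13 for Gbp9. Members with an unadjusted p under 0.05 then numbered 2 to 8. Over all genes, those lower at that level ran from 760 of 17628 (without control 4) to 1447 of 17668 (without control 1). At the adjusted threshold 0 to 1 of all genes were called higher and 0 lower. Fewer tumours were fitted in male tumours alone and when 1 was left out, and the cause of the other shifts was not tested. Of the 16 relations with Ifng and Irf1, 16 passed without the 2 farthest tumours, 16 within the Arf6Q67L group and 16 without the 2 tumours under 3 Ifng counts, the last chosen after seeing the data. The share of promoter windows with the response element core was 8.56% with its shorter form and 1.74% on the gene strand alone, where 0 of the 4 windows shown held it. No paired analysis was possible because the labels give the groups no shared replicate numbers. Gbp10 had few counts in some tumours, and counts below the floor of 3 set no level.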
